A study of Mus musculus with 5 samples.

Results

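Genes annotated with hormone activity are those that the deposited gene table marks with this gene ontology term, which covers peptide and protein hormones and a few predicted genes. The term stands beside 77 of the 28666 listed genes, and 68 were kept after the calcitonin and adrenomedullin peptides, insulin-like growth factors, inhibin beta A and B chains and Retnla were set aside by name. Uterine RNA was sequenced from pseudopregnant ICR females, 6 to 8 weeks old, whose mates were ligated (vasectomized) C57BL/6 males, 3.5 days after caging per the labels. The study's methods place collection slightly earlier, before embryo transfer. Old males had been with the 2 aged-SP females (replicates 1 and 4), and young males with the 3 young-SP females (replicates 1, 2 and 4). All 5 uteri were thus exposed to seminal plasma (SP) without sperm, no female carried embryos of her own, and no unmated control is among these samples. Whole organs were sequenced, so fewer cells of a type and less RNA per cell cannot be told apart. The total count per library lay between 15071914 and 16728601, each library was labelled as a separate sample, and p-values measure the spread between these samples.

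A peptide hormone is made as a longer precursor that is cut by proprotein convertases, sometimes trimmed and amidated, and then binds a receptor on the same, a neighbouring or a distant cell. In the uterus several of these peptides act locally. Endothelins and angiotensin set the tone of vessels and muscle, relaxins soften connective tissue, apelin acts on endothelium, and stanniocalcins are secreted by the endometrium around implantation. Oxytocin, whose gene is not among the hormone genes kept here, makes the myometrium contract. The comparison asks which of the kept messengers differed in the uterus according to the age of the male whose seminal plasma it had received.

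The 2 ligands of the apelin receptor are shown by their coding sequences, because both were lower in the aged-SP uteri and because the receptor is engaged by the end of each peptide. Sequences are written 5′ to 3′ on the coding strand from GENCODE M21 transcripts on GRCm38, and capitals mark the last 39 bases before the stop codon. Apln lies on the minus strand at chrX:48025146-48034853 and has a coding sequence of 234 bases. Apela lies on the minus strand at chr8:65028417-65037336 and has one of 165 bases. In apelin, the capitals encode its shortest well-known active form.
Apln: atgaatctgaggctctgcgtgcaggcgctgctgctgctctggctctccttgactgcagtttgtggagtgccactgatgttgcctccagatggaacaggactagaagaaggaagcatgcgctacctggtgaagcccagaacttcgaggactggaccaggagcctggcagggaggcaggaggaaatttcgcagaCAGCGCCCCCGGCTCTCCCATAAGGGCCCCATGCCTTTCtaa
Apela: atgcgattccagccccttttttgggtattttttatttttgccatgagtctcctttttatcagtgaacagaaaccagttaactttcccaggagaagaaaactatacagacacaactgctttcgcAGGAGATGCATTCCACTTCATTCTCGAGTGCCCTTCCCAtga

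The 250 bases before the start site, from RefSeq on GRCm38.p6, are given for 1 gene each of the apelin, endothelin and relaxin families in which every aged-SP library was below every young-SP library. Positions are chrX:48034854-48035103 (minus strand) for Apln, chr2:174760369-174760618 (plus strand) for Edn3 and chr19:29334671-29334920 (minus strand) for Rln1. Capitals mark the TATA box letters TATAAA, and the last base lies next to the start of the gene.
Apln: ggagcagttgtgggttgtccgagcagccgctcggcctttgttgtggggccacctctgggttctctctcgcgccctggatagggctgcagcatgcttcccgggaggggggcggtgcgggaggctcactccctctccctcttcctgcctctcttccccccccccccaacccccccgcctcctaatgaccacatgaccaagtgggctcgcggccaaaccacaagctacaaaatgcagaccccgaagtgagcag
Edn3: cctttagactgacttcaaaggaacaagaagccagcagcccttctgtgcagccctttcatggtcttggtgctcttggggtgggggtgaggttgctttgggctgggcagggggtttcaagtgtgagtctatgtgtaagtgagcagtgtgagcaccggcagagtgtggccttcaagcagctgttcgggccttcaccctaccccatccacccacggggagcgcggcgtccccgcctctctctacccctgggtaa
Rln1: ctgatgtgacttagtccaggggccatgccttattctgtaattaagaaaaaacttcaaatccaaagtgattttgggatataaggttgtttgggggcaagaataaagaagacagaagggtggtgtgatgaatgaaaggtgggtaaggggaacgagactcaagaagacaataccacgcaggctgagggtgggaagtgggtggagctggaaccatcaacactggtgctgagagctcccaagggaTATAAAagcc

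TATAAA occurred on either strand in this window in 12.4% of 32851 RefSeq promoters and in 4 of the 22 tested members that have one in the table (Agt, Pomc, Rln1 and Tshb). The letters ACGTG, the core of the hypoxia response element, occurred in 16.6% of all promoters and in 3 members (Erfe, Fndc5 and Pomc). AGGTCA, a half-site of the estrogen response element, occurred in 14% and in 3 members (Inha, Pomc and Retnlg). AGAACA, a half-site of the progesterone and glucocorticoid response elements, occurred in 16.1% and in 0 of the 22 members. Apln and Edn3 thus held none of these 4 sets of letters in this window, and a match is a description of letters only.

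Of the 68 hormone genes, 27 had enough counts to be tested and 41 did not. On the FPKM scale, which divides counts by gene length and library total, 17 members had a mean of at least 1 over the 5 libraries and 5 a mean of at least 10. Copa, the coatomer subunit from which the peptide xenin is cut, was the highest at 35.5 FPKM. Fbn1, the microfibril protein fibrillin-1 whose cleaved end is the hormone asprosin, had 25.6 FPKM. They were followed by Retnlg, a resistin-like peptide of myeloid cells, at 21.9 FPKM, C1qtnf12, the adipokine adipolin, at 16.3 FPKM, and Fndc5, the precursor of the myokine irisin, at 13.1 FPKM. The next levels were 9.46 FPKM for Edn1, 8.70 FPKM for Metrnl, 8.12 FPKM for Insl6, 5.33 FPKM for Stc2 and 3.73 FPKM for Edn3. The hormones of pituitary, gut and pancreas each had a mean under 1 FPKM.

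**Figure D1:**
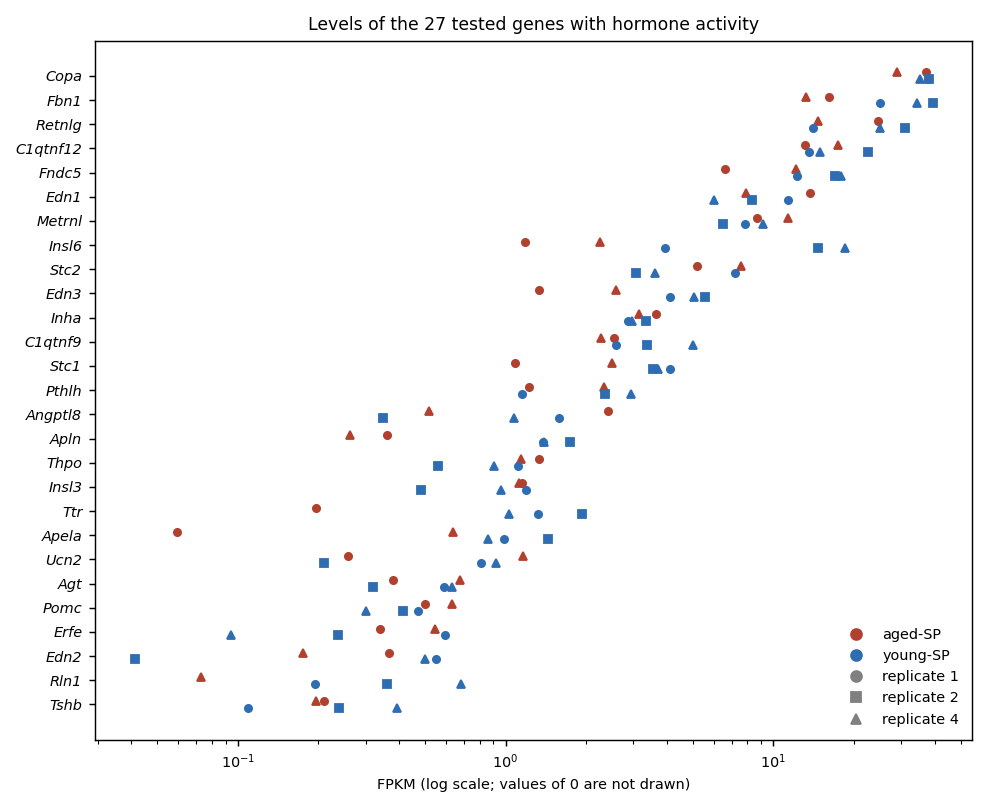
FPKM of the 27 tested hormone genes in each library, on a log axis, with red for aged-SP, blue for young-SP and the replicate number as the shape. Copa and Fbn1 lie at the top of the scale, and the red points of Apln, Ttr, Edn3, Insl6, Rln1, Stc1 and Apela lie left of all blue points of the same gene; the value of 0 of Ttr in aged-SP replicate 4 and of Rln1 in aged-SP replicate 1 cannot be drawn on this axis.

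No hormone gene passed the test for a difference between the groups, for which the adjusted p had to be under 0.05 and the log2 fold change beyond 1 in either direction. The test was the quasi-likelihood test of edgeR, adjusted by Benjamini-Hochberg over 17013 genes, and 25 of these passed, which is 0.147% (0.0823% with the aged-SP level higher, 0.0647% with it lower). With the adjusted p alone, again no hormone gene passed, against 0.153% of all tested genes. At an unadjusted p under 0.05 stood 7 of the 27 members, against 19.0% of all tested genes. In each of the 7 the aged-SP level was the lower one, whereas 9.36% of all tested genes were at that p and lower and 9.62% at that p and higher. DESeq2's Wald test put 6 of 32 members past the same thresholds (Apln, Fbn1, Ttr, Edn3, Insl6 and Rln1), each with the lower level in aged-SP. By that test 3.60% of all genes passed, 1.92% lower and 1.69% higher. With no filter on low counts, edgeR put Apln and Fbn1 past them, against 0.708% of all genes. Without young-SP replicate 1, edgeR put 3 of 26 members past them (Apln, Fbn1 and Insl6), against 3.45% of all tested genes. Limma-voom put 0 members past them. The number of hormone genes that count as different therefore moved with the test and the libraries used. The median log2 fold change, aged-SP over young-SP, was -0.23 over the 27 members and 0.01 over all tested genes, and 16 of the 27 were below 0, against 49.1% of all tested genes.

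**Figure D2:**
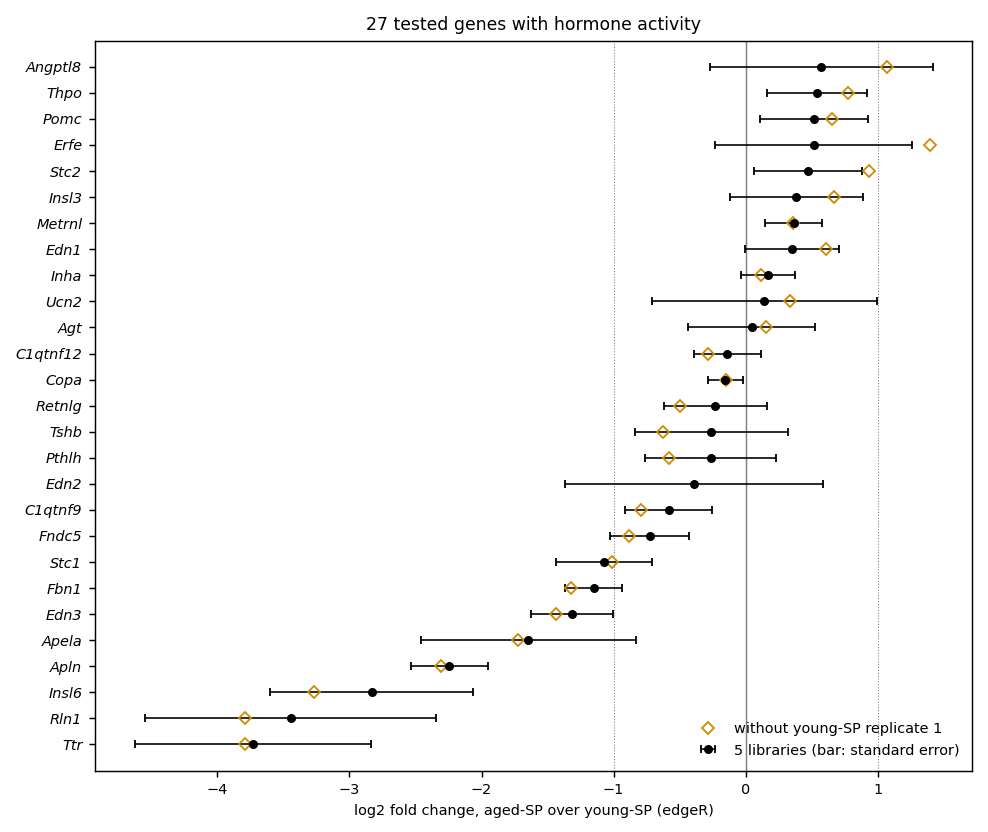
Log2 fold change (aged-SP over young-SP) of the 27 tested hormone genes from edgeR, with its standard error as a bar; open diamonds are the values without young-SP replicate 1, and dotted lines mark a log2 fold change of 1 in either direction. Ttr, Rln1, Insl6 and Apln have the lowest values, between -3.73 and -2.24, and the 11 members above 0 reach at most 0.57 with all libraries.

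Apelin transcripts showed the smallest p of all members. Apln was at 1.15 and 0.83 CPM (counts scaled to the library size after TMM) in replicates 1 and 4 of the aged-SP group, and at 4.38, 5.38 and 4.41 CPM in replicates 1, 2 and 4 of the young-SP group. The mean was 0.99 ± 0.22 CPM (SD, n = 2) against 4.72 ± 0.57 CPM (SD, n = 3), and the groups were apart by more than the range within either. Its log2 fold change was -2.24 (SE 0.29), a 4.73-fold lower level, with an adjusted p of 0.0708 by edgeR. DESeq2 gave an adjusted p of 1.16e-05, edgeR without young-SP replicate 1 gave 0.0323, and the alternatives ranged from 1.16e-05 to 0.240. Apela (elabela or toddler), the other ligand, is best known from the early embryo and the placenta. Its counts were 1 and 10 in aged-SP and 16, 24 and 13 in young-SP, and its log2 fold change of -1.65 (SE 0.81) had an adjusted p of 0.336 by edgeR. The value was -0.78 without aged-SP replicate 1 and -4.02 without aged-SP replicate 4. Both aged-SP libraries were the lowest for it too, but it overlaps Gm45886 on the same strand, and 26.0% of its 50-base stretches also occur in transcripts of other genes. Aplnr, the common receptor of Apln and Apela, was at 58.1 and 47.2 CPM in the aged-SP group and at 37.9, 75.6 and 53.3 CPM in the young-SP group. The groups thus overlapped, with a log2 fold change of -0.08 (SE 0.29) and an adjusted p of 0.909 by edgeR. The summed level of 8 endothelial markers (Pecam1, Cdh5, Kdr and others) was 698 and 724 CPM in the aged-SP group and between 539 and 896 CPM in the young-SP group.

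The endothelins, vasoconstrictor peptides made by endothelium and epithelium, did not go together. Edn3 was at 5.56 and 10.6 CPM in the aged-SP libraries and at 17.1, 22.4 and 21 CPM in the young-SP libraries, in the order of replicates. It averaged 8.09 ± 3.58 CPM (SD, n = 2) against 20.1 ± 2.73 CPM (SD, n = 3), and the higher aged-SP library lay below the lowest young-SP library. The log2 fold change was -1.32 (SE 0.31), with an adjusted p of 0.126 by edgeR and 0.00234 by DESeq2, and between 0.00234 and 0.313 over the alternatives. Edn1, the endothelial form, was at 29.7 and 16.9 CPM against 24.5, 17.4 and 12.9 CPM, which overlap, and had a log2 fold change of 0.35 (SE 0.35) and an adjusted p of 0.626 by edgeR. Edn2 had between 1 and 13 counts in every library and a log2 fold change of -0.39 (SE 0.98). The receptors Ednra and Ednrb overlapped between the groups, with log2 fold changes of -0.18 (SE 0.19) and 0.30 (SE 0.38). Ece1, the enzyme that releases the active peptides, was at 129 and 124 CPM against 114, 131 and 119 CPM, and its relative Ece2 had a log2 fold change of -0.54 (SE 0.46), or -1.26 without aged-SP replicate 1.

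Other vasoactive members were low. Agt, the precursor of the angiotensins, had between 10 and 20 counts in each library and a log2 fold change of 0.04 (SE 0.48). The natriuretic peptides lower blood pressure and, in the case of C-type (Nppc), hold oocytes in meiotic arrest. Nppc, with counts of 4 and 5 in aged-SP and 2, 10 and 27 in young-SP, was not tested. Nppa, the atrial peptide, was the only member at 3 or fewer counts in every library of one group and above that in every library of the other. Its counts were 8 and 6 in aged-SP and 0, 3 and 2 in young-SP. It overlaps the antisense gene Gm13054, whose reads cannot be told apart without strand, and shares 53.4% of its stretches with other genes. Nppb, Uts2 and Ostn reached at most 14 counts, that being Ostn in young-SP replicate 2.

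Among relaxins and their kin, both members that neighbour each other on chromosome 19 were lower in the aged-SP libraries. Insl6, an insulin-like peptide best known from the testis (chr19:29321344-29325356), was at 0.85 and 1.6 CPM in the aged-SP group and at 2.81, 10.2 and 13.2 CPM in the young-SP group. Young-SP replicate 1 was the lowest of its group and lay nearer to the aged-SP libraries than to its own group, and the group means were 1.22 ± 0.53 CPM (SD, n = 2) and 8.73 ± 5.35 CPM (SD, n = 3). The log2 fold change was -2.83 (SE 0.77), with an adjusted p of 0.150 by edgeR, 0.00154 by DESeq2 and 0.0230 by edgeR without that library, and a range from 0.00154 to 0.447 over the alternatives. Rln1, relaxin (chr19:29331170-29334670), was counted 0 and 4 times in aged-SP and 11, 21 and 36 times in young-SP. Its log2 fold change of -3.44 (SE 1.10) had an adjusted p of 0.188 by edgeR and 0.0448 by DESeq2, and the alternatives reached 0.443. It was -2.46 without aged-SP replicate 1 and -7.54 without aged-SP replicate 4, when only the library at 0 counts is left and the fitted value is no bound. The genes on either side, Jak2 (a cytokine receptor kinase) and Plgrkt (a plasminogen receptor), had log2 fold changes of -0.27 (SE 0.11) and 0.06 (SE 0.13), with adjusted p of 0.282 and 0.854 by edgeR.

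The relaxin receptor went the other way in level. Rxfp1, through which relaxin acts on stroma and myometrium, was at 578 and 698 CPM in the aged-SP group and at 494, 357 and 326 CPM in the young-SP uteri, without overlap. It had a log2 fold change of 0.70 (SE 0.20) and an adjusted p of 0.170 by edgeR. Rxfp2, the receptor of Insl3, was at 3.81 and 11.9 CPM against 6.0, 5.62 and 5.01 CPM, which overlap, with a log2 fold change of 0.50 (SE 0.47) that was -0.54 without aged-SP replicate 4. Insl3 itself, the testicular descent hormone, had between 5 and 12 counts in each library. It overlaps Jak3, however, and 61.9% of its stretches occur in transcripts of other genes. Of the remaining insulin family members, Rln3 was counted 2 and 0 times in aged-SP and 7, 6 and 2 times in young-SP, and Ins2 and Insl5 had at most 1 count in any library.

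**Figure D3:**
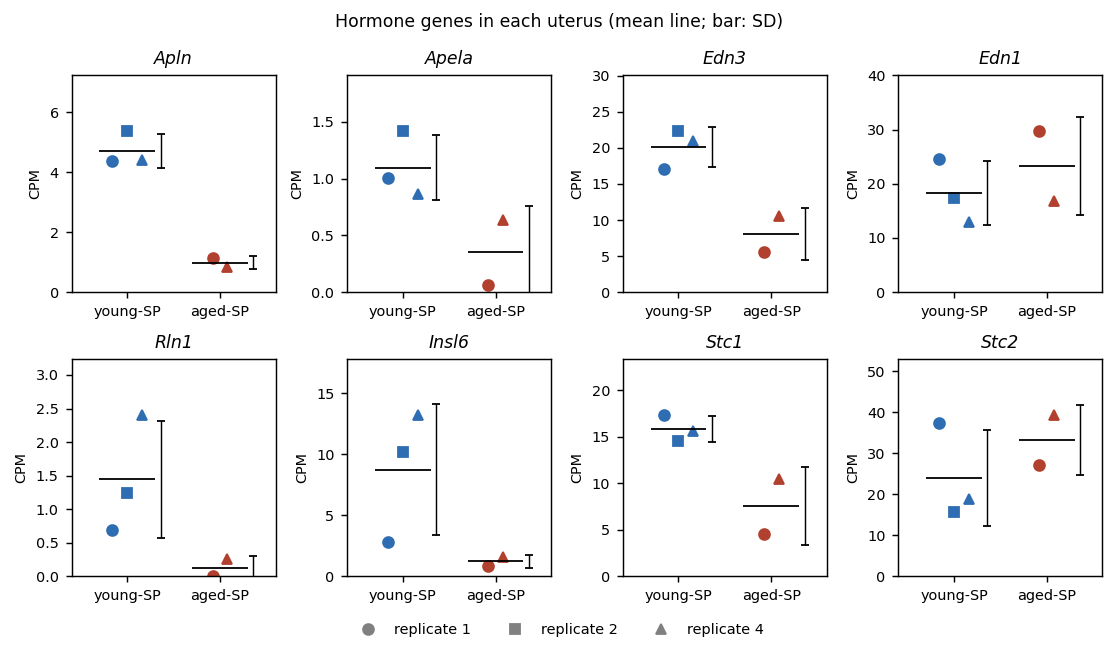
CPM of 8 hormone genes in each library; points are libraries (shape: replicate number), the line is the group mean and the bar its SD, and bars that would pass below 0 are cut at the axis. In Apln, Apela, Edn3, Rln1, Insl6 and Stc1 both aged-SP points lie below all young-SP points, whereas Edn1 and Stc2 overlap between the groups.

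Fbn1 was the most abundant of the 10 members whose aged-SP libraries all lay below the young-SP libraries. It was at 198 and 161 CPM in the aged-SP libraries and at 305, 467 and 421 CPM in the young-SP libraries, with means of 179 ± 26.3 CPM (SD, n = 2) and 398 ± 83.2 CPM (SD, n = 3). The log2 fold change was -1.15 (SE 0.22), a 2.22-fold lower level, with an adjusted p of 0.0905 by edgeR, 5.14e-05 by DESeq2 and 0.0217 by edgeR without young-SP replicate 1. Over the alternatives it ranged from 5.14e-05 to 0.271. Fibrillin-1 is above all a component of elastic microfibrils, and counts do not separate the transcript's use for microfibrils from its use for asprosin. Fbn1 overlaps the opposite-strand gene Gm9913, whose reads cannot be told apart from its own, and shares 19.7% of its stretches with other genes. Beside it, the summed level of 8 endometrial stroma markers (Pdgfra, Hoxa10, Dcn, Lum and others) was 4027 and 5060 CPM in the aged-SP group and 4173, 5580 and 6071 CPM in the young-SP group. Of these 8 markers, 7 had a log2 fold change below 0 and 3 an unadjusted p under 0.05, beside 49.1% and 19.0% of all tested genes. Without young-SP replicate 1, Pdgfra, the growth factor receptor that marks stroma, had a log2 fold change of -0.78 and an adjusted p of 0.0309 by edgeR, where the alternatives ranged from 0.00476 to 0.363. With all libraries, Pdgfra had a log2 fold change of -0.65 and an adjusted p of 0.12 by edgeR. Dcn was the marker above 0, at 0.07, and Hoxa10 was at -0.09. The part of the stroma in the result was not tested. Copa, at 353 and 274 CPM against 358, 353 and 335 CPM, overlapped between the groups, with a log2 fold change of -0.15 (SE 0.13) and an adjusted p of 0.566 by edgeR. It overlaps Ncstn and Gm37756 on the opposite strand and shares 8.31% of its stretches.

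Ttr (transthyretin), which carries thyroid hormone and retinol-binding protein and is made by liver and choroid plexus, was counted 4 and 0 times in aged-SP and 26, 39 and 19 times in young-SP, so the groups were apart at a low level. Its log2 fold change was -3.73 (SE 0.89), with an adjusted p of 0.123 by edgeR and 0.00474 by DESeq2, and between 0.00474 and 0.289 over the alternatives. The fold rests on which aged-SP library is used, at -2.81 without replicate 4 and -7.79 without replicate 1, when only the library at 0 counts is left and the fitted value is no bound. Tg (thyroglobulin), the thyroid hormone precursor, had between 4 and 12 counts and was not tested.

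The stanniocalcins, glycoproteins that regulate calcium and phosphate and that the uterus secretes around implantation, differed from each other. Stc1 was at 4.59 and 10.5 CPM in the aged-SP group and at 17.3, 14.5 and 15.6 CPM in the young-SP group, which did not overlap, and averaged 7.54 ± 4.17 CPM (SD, n = 2) against 15.8 ± 1.40 CPM (SD, n = 3). With a log2 fold change of -1.07 (SE 0.36), it had an adjusted p of 0.212 by edgeR and 0.0567 by DESeq2. Leaving out aged-SP replicate 1 gave -0.60 and leaving out aged-SP replicate 4 gave -1.78. Stc1 overlaps the antisense gene Gm41192 and shares 4.34% of its stretches with other genes. Stc2 was at 27.2 and 39.3 CPM against 37.5, 15.6 and 18.8 CPM, and young-SP replicate 1 lay within the aged-SP range. Its log2 fold change was 0.47 (SE 0.41) with an adjusted p of 0.568 by edgeR, and 0.94 with an adjusted p of 0.0912 without that library, where the alternatives lay between 0.0912 and 0.895. Pthlh, the parathyroid hormone-like peptide that relaxes the uterus, overlapped at 2.0 and 3.77 CPM against 1.88, 3.72 and 4.81 CPM. The log2 fold change of Pthlh was -0.27 (SE 0.49).

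Hormones of fat, liver and muscle made up the largest role group with enough counts, with 7 of 10 members tested, and none of the 7 had an unadjusted p under 0.05. Fndc5 was at 18.4 and 33.6 CPM in the aged-SP group and at 34, 45.8 and 49.5 CPM in the young-SP group, a log2 fold change of -0.73 (SE 0.30) with an adjusted p of 0.275 by edgeR. The aged-SP libraries were the lowest, although replicate 4 lay within 1 CPM of young-SP replicate 1. C1qtnf9, an adipokine of the complement C1q family, was at 4.90 and 4.35 CPM against 4.94, 6.27 and 9.61 CPM, apart by a margin smaller than the spread within the young-SP group. Metrnl, secreted by muscle and epithelia, was at 14 and 18 CPM against 12.6, 10.1 and 14.6 CPM, with a log2 fold change of 0.36 (SE 0.21). Retnlg, C1qtnf12, Erfe (the iron hormone erythroferrone) and Angptl8 (a regulator of lipoprotein lipase) overlapped between the groups, with log2 fold changes between -0.23 and 0.57. For Erfe it was 0.52 with all libraries and 1.40 without young-SP replicate 1. The gene overlaps Ilkap on the opposite strand and shares 10.9% of its stretches with other genes.

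Adiponectin, the most abundant hormone of fat cells, was seen in 1 library only. Adipoq had 12 counts in young-SP replicate 4 and 0 in the other 4 libraries. Of the fat cell genes, Cfd, Cidec and Plin1 were chosen after their values were seen. In young-SP replicate 4 they had 58, 8 and 7 counts, whereas each had at most 2 in any other library. The summed level of all 10 adipose markers was 148 CPM there and between 94.3 and 135 CPM in the others. Retn (resistin) had 2 counts each in young-SP replicates 2 and 4 and 0 elsewhere, and Hamp2 had 1 count in all.

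Pituitary-type hormones were low throughout. Pomc, the precursor of corticotropin, melanocortins and beta-endorphin, was counted 11 and 13 times in aged-SP and 10, 9 and 6 times in young-SP. Both aged-SP values were the higher, with a log2 fold change of 0.52 (SE 0.41) and an adjusted p of 0.529 by edgeR. Tshb (the thyrotropin beta chain) and Ucn2 (urocortin 2, a ligand of Crhr2) overlapped, with log2 fold changes of -0.26 (SE 0.58) and 0.14 (SE 0.85). Prolactin family transcripts were nearly absent, Prl having 1 count in all. The exception was Prl6a1, with 28 counts in aged-SP replicate 1 and 2, 2, 0 and 2 in aged-SP replicate 4 and young-SP replicates 1, 2 and 4; it was chosen after its values were seen. Lhb, Gpha2, Gphb5, Prlh and Prl2a1 had at most 3 counts in any library, and Prl2c3 at most 5.

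Thpo (thrombopoietin), which drives platelet production, was at 2.48 and 2.11 CPM in the aged-SP group and at 2.06, 1.0 and 1.67 CPM in the young-SP group, apart by a margin smaller than the spread within either group. With a log2 fold change of 0.54 (SE 0.38), it had an adjusted p of 0.478 by edgeR. It overlaps Chrd on the opposite strand and shares 7.15% of its stretches with other genes. Inha, the inhibin alpha chain, overlapped at 5.44 and 4.67 CPM against 4.25, 4.85 and 4.41 CPM, with a log2 fold change of 0.17 (SE 0.20). Epo (erythropoietin) was counted 1 and 2 times in aged-SP and 0 times in the 3 young-SP libraries, Amh had between 1 and 4, and Vip, the relaxant neuropeptide, had 0 and 0 against 2, 3 and 1 counts. The other gut and neural peptides (Gcg, Cck, Sct, Ghrl and Vgf) reached at most 13 counts, in Ghrl (ghrelin) in aged-SP replicate 1. Inhbe, Bmp10 and the receptor Crhr2 reached at most 6 counts, and the 10 noncoding, pseudogene or predicted members, such as Platr9 and Igf2os, at most 10. Of the 41 untested members, 19 had 3 or fewer counts over all libraries together and 7 reached 10 counts in any library, Prl6a1 being the highest. A count of 0 allows up to 3 counts in that library, so a lower level was not detectable at this depth.

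In all, 12 of the 27 tested members did not overlap between the groups, 10 with the aged-SP group lower and 2 with it higher (Thpo and Pomc). Over all tested genes, 38.8% did not overlap, 19.3% with aged-SP lower and 19.5% with aged-SP higher. Young-SP replicate 1 lay nearer to the aged-SP mean than to the mean of the other 2 young-SP libraries in 19 of the 27 members, or 70.4%, against 43.4% of all tested genes.

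The receptors for these hormones, and the enzymes that cut, amidate or break down peptides, were examined as a second list of 114 genes, of which 101 were listed outside the hormone genes and 63 were tested. None of the 63 passed the test in edgeR, and 24 had an unadjusted p under 0.05 (15 with a higher and 9 with a lower aged-SP level), beside 19.0% of all tested genes (9.62% higher, 9.36% lower). DESeq2 put 8 of 67 past its thresholds, beside 3.60% of all genes, and edgeR without young-SP replicate 1 put 7 of 63 past them, beside 3.45%. Of the 37 tested receptors, 18 had an unadjusted p under 0.05, 12 of them higher, beside the same 19.0%. Without overlap, 15 of the 37 stood higher and 6 lower, beside 19.5% and 19.3% of all tested genes. The median log2 fold change of the receptors was 0.27, and that of the 26 tested processing genes was 0.10.

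**Figure D4:**
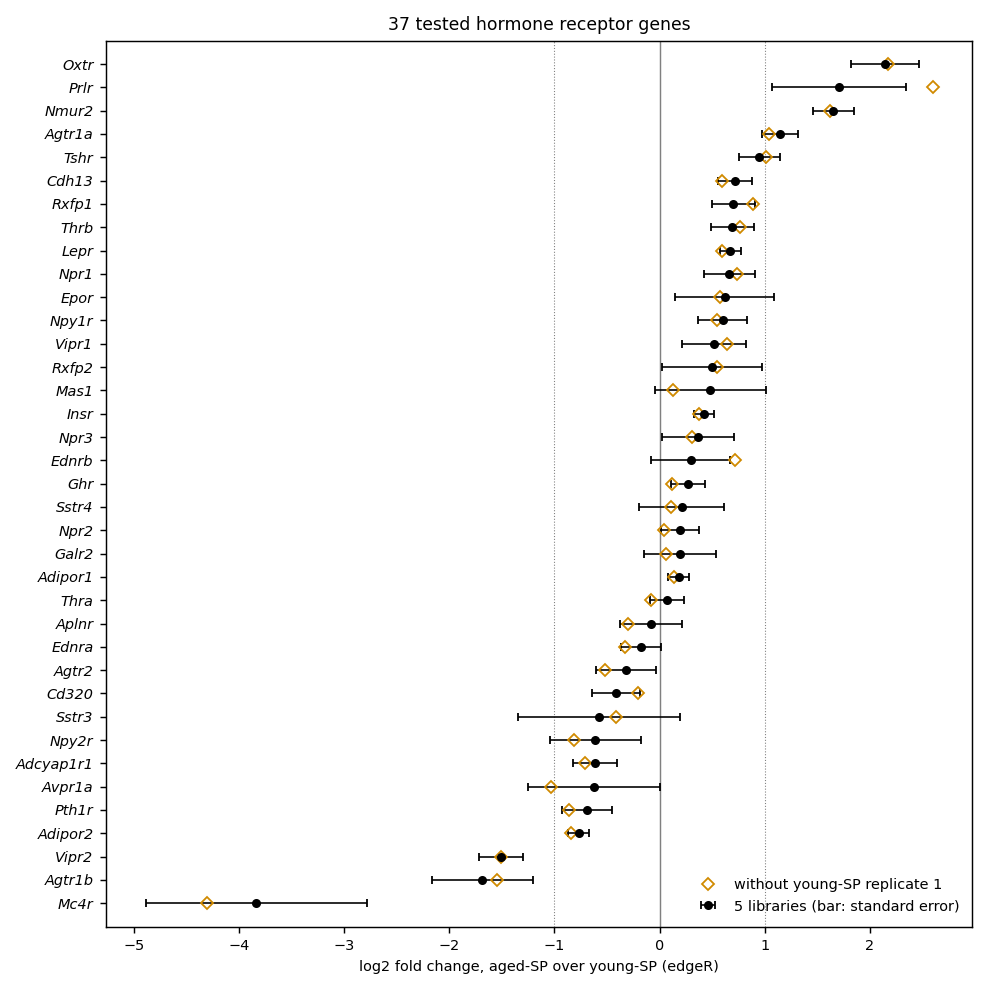
Log2 fold change (aged-SP over young-SP) of the 37 tested hormone receptor genes from edgeR with its standard error; open diamonds are the values without young-SP replicate 1, and dotted lines mark a log2 fold change of 1 in either direction. Oxtr, Prlr, Nmur2 and Agtr1a have the highest values, Mc4r, Agtr1b and Vipr2 the lowest, and Aplnr and Ednra lie near 0.

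The receptors named next were chosen after their values were seen, apart from Mc4r. Oxtr, the oxytocin receptor of the myometrium, was at 86.6 and 67.9 CPM in the aged-SP group and at 18.5, 10.8 and 23.2 CPM in the young-SP group. Its log2 fold change was 2.14 (SE 0.32), a 4.42-fold higher level, with an adjusted p of 0.0734 by edgeR and 1.07e-07 by DESeq2, and between 1.07e-07 and 0.271 over the alternatives. The summed level of 8 myometrial markers (Myh11, Acta2, Des and others) was 9084 and 11510 CPM in the aged-SP group and between 9460 and 14260 CPM in the young-SP group, and 0 of the 8 had an unadjusted p under 0.05. Nmur2, a neuromedin U receptor, was at 30.7 and 36 CPM against 10.4, 8.69 and 12.8 CPM, and had an adjusted p of 0.0649 by edgeR, the lowest among these 63 genes. Agtr1a, the main angiotensin receptor, had a log2 fold change of 1.15 (SE 0.17), whereas its low-level paralog Agtr1b had one of -1.69 (SE 0.48), or -2.32 without aged-SP replicate 1. In level, Agtr1a was at 21.6 and 18.9 CPM against 7.94, 9.46 and 10.1 CPM, and Agtr1b was under 2 CPM in every library. Vipr2, a receptor of the relaxant peptide VIP, was lower at 7.07 and 5.37 CPM against 17.9, 15.4 and 19.8 CPM, with an adjusted p of 0.0734 by edgeR. Mc4r, a melanocortin receptor and so a receptor of Pomc products, had 2 and 5 counts against 13, 54 and 85, with a log2 fold change of -3.83 (SE 1.05) and an adjusted p of 0.151 by edgeR. That value lay between -4.65 without aged-SP replicate 4 and -3.17 without young-SP replicate 4. Prlr, the prolactin receptor, was at 136 and 89.2 CPM against 66.8, 15.7 and 21.2 CPM, and its adjusted p was 0.240 with all libraries and 0.0203 without young-SP replicate 1, with a range from 0.0203 to 0.559, and its log2 fold change was 1.71 and 2.60 in these fits. Smaller differences without overlap were seen for the leptin receptor Lepr, at 107 and 107 CPM against 60.9, 70.0 and 70.3 CPM, and for the adiponectin receptor Adipor2, at 132 and 135 CPM against 210, 240 and 234 CPM. Their log2 fold changes were 0.67 (SE 0.10) and -0.77 (SE 0.10), with adjusted p of 0.0734 and 0.0708 by edgeR.

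**Figure D5:**
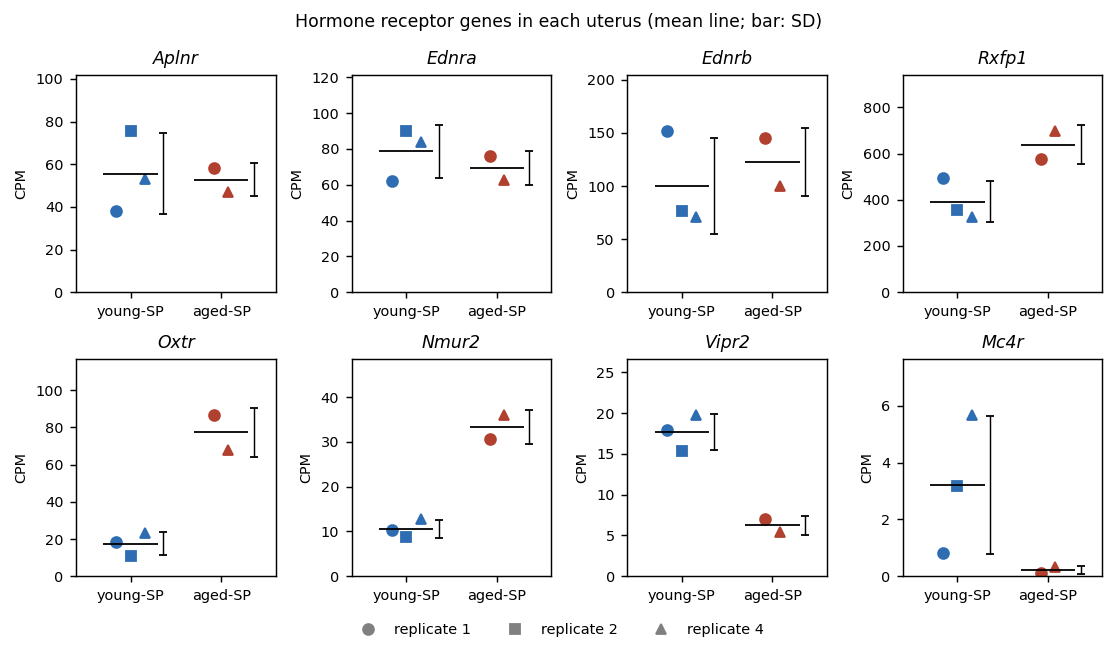
CPM of 8 hormone receptor genes in each library; points are libraries (shape: replicate number), the line is the group mean and the bar its SD. Aplnr, Ednra and Ednrb overlap between the groups, both aged-SP points of Rxfp1, Oxtr and Nmur2 lie above all young-SP points, and both aged-SP points of Vipr2 and Mc4r lie below them.

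Among processing enzymes, also chosen after their values were seen, the proprotein convertase Pcsk6 was at 68.9 and 33.2 CPM in the aged-SP group and at 13.9, 16.9 and 10.9 CPM in the young-SP group. Its log2 fold change was 1.87 (SE 0.34), with an adjusted p of 0.0889 by edgeR, and it was 1.25 without aged-SP replicate 1. Pcsk5, a related convertase, was lower at 71.6 and 35 CPM against 88.3, 149 and 105 CPM, with a log2 fold change of -1.10 (SE 0.37), or -1.71 without aged-SP replicate 1, and an adjusted p of 0.214 by edgeR. Scg5, the chaperone of the convertase Pcsk2, had a log2 fold change of 1.5 (SE 0.39), or 0.74 without aged-SP replicate 1, while Pcsk2 itself had at most 4 counts and Pcsk1 at most 11. Mme (neprilysin), which degrades natriuretic and other peptides and marks endometrial stroma, was at 262 and 222 CPM against 254, 694 and 880 CPM. Young-SP replicate 1 lay within the aged-SP range for Mme, whose adjusted p was 0.255 by edgeR with all libraries and 0.0190 without that library, with a range from 0.0190 to 0.521.

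Cell type markers were set beside these values. Of the 12 lists, the gland list differed most in relative terms, with a summed level of 3959 and 2939 CPM in the aged-SP group and 518, 49.0 and 41.9 CPM in young-SP replicates 1, 2 and 4. Of the 6 listed gland genes, 4 did not overlap (38.8% of all tested genes), 1 had an unadjusted p under 0.05 (19.0% of all tested genes), and 0 passed the adjusted threshold in edgeR with all libraries. Those without overlap were Prss28, Prss29 and Sox9, with the aged-SP level higher, and Cxcl15, with it lower. Cxcl15 was the gene at that unadjusted p, with a log2 fold change of -2.35 (SE 0.53) and an adjusted p of 0.116 by edgeR. Without young-SP replicate 1, the adjusted p was under 0.05 for 3 of the 6, beside 4.81% of all tested genes. These were Prss28, with a log2 fold change of 11.74 and an adjusted p of 0.00689 (0.00689 to 0.530 over the alternatives), Prss29 with 8.30 and 0.0178 (to 0.546), and Sox9 with 1.71 and 0.0359 (to 0.647). The sum came mainly from the implantation proteases Prss28 and Prss29, while Foxa2, the transcription factor that defines glands, was at 10.6 and 12 CPM against 8.51, 14.1 and 11.6 CPM. Spink3 is not among the listed genes. The part of the glands in the hormone results was not tested. Young-SP replicate 1 lay between its group and the aged-SP libraries for the gland sum, as it did for Insl6, Rxfp1 and Prlr. Uterine epithelium markers summed to between 1013 and 1840 CPM, leukocyte markers to between 903 and 1766 CPM, oviduct markers to between 148 and 388 CPM and ovary markers to between 52.4 and 107 CPM. Nerve and glia, pancreas, and vagina and cervix markers stayed under 18 CPM in every library. None of the genes on any of the 12 marker lists had an adjusted p under 0.05 in edgeR with all libraries, and at an unadjusted p under 0.05 stood 2 in the epithelium list, 2 in the adipose list and 1 each in the endothelium and oviduct lists, besides those given above. DESeq2 gave no p for Prss28 and Prss29, so their ranges above leave it out, and it judged 4 of the 6 gland genes. It put 1 gene each of the epithelium, gland, stroma and oviduct lists at an adjusted p under 0.05. Without young-SP replicate 1, edgeR did so for 4 of the 10 epithelium markers, beside the gland and stroma genes given above.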

How the data were processed

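RNA of 5 whole uteri was extracted with TRIzol and made into libraries with a NEBNext Ultra kit, which does not mark strand, for Illumina sequencing. The authors filtered and aligned the reads with HISAT2 2.1.0 and deposited a raw count for every gene and library; HTSeq 0.6.0 and Bowtie2 2.2.3 are also named in the submitters' processing notes, without a role. FPKM values deposited by the authors equal these counts over gene length and library total (relative difference at most 2.3e-07) and serve here for levels only. A young-SP sample that the study set aside is not analysed here. Columns of the authors' DESeq2 comparison (mean scaled signal, fold changes, p-values) were not used, and no measurement column of a sample went unused (0 left over).

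Counts were fitted with edgeR 4.0.16 in R 4.3.3 (filterByExpr, TMM factors 0.990 to 1.02, glmQLFit and glmQLFTest, two-sided, Benjamini-Hochberg). The common dispersion was 0.0629, a biological coefficient of variation of 25.1%. DESeq2 1.42.0, limma 3.58.1 (voom), 2 other scalings, 2 other filters, a replicate block, each library left out and the adjusted p alone were alternatives. Fitting was tried on simulated counts with no library between the groups, which does not test how calls depend on young-SP replicate 1. Members, gene lists and tests were chosen with earlier results of these data known. Named members are any called, the 20 with the smallest p, the 10 with the highest FPKM, uterine hormones of a list of 30 genes (18 listed), and those at 3 or fewer counts in 1 group only; of the second list, receptors and enzymes of these. Exceptions are marked. Positions match GENCODE M21 for 65 of 68 members. RefSeq promoters were found for 51 members. Shared sequence means 50-base stretches of a gene that transcripts of another gene also hold, in percent. Floors (3 counts) cover counting error only.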

Additional observations from a re-analysis of the deposited data

How the results depend on the processing

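The number of hormone genes past the thresholds was 0 with all libraries and edgeR. It was 6 with DESeq2, 2 with no filter on low counts (Apln and Fbn1), and between 0 and 3 with each library left out, the 3 arising without young-SP replicate 1. For receptor and processing genes the count was 0, then 8 with DESeq2, 5 with no filter, and between 0 and 7 with a library left out. For all tested genes it was 25, then 632 with DESeq2, 203 with no filter, and between 1 (without aged-SP replicate 1) and 578 (without young-SP replicate 1) with a library left out, with 49, 3 and 2 without aged-SP replicate 4 and young-SP replicates 2 and 4. The cause was not tested. Other scalings, limma-voom, at least 10 counts in every sample and the adjusted p alone gave 18 to 27 calls of all genes and 0 hormone genes, and neither scaling moved the median of all genes by more than 0.0134 (log2). The median of the hormone genes stayed below 0 in every alternative, between -0.39 and -0.07.

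Of 312 combinations of a hormone gene and one of 12 alternatives, 291 kept the direction. The other 21 fell in 10 genes, all with an adjusted p above 0.56 in edgeR. In limma-voom Edn2 was at 0.12. With a library left out, log2 fold changes ranged from -0.12 to 0.70 for Edn1, -0.94 to 1.28 for Angptl8, -0.35 to 0.10 for C1qtnf12, -0.79 to 0.12 for Pthlh, -0.35 to 0.0174 for Copa, -0.66 to 0.10 for Retnlg, -1.03 to 0.0359 for Edn2, -1.27 to 0.85 for Ucn2, -0.41 to 0.40 for Agt and -0.62 to 0.24 for Tshb. Fits that leave 1 aged-SP library assume that it varies like the young-SP group.

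Replicate numbers 1 and 4 occur in both groups, but the labels do not say what a number shares, and the deviations of same-numbered libraries correlated at 0.152 and 0.136 over 2 pairs. Deviations were taken from the group mean, so those of the 2 aged-SP libraries mirror each other and the pairs are not independent. Aged-SP replicate 4 with young-SP replicate 2 gave 0.0757, and the remaining differently numbered pairs were negative. These values cannot decide whether a number marks a pair. With the replicate block, 2 of all tested genes and 0 hormone genes passed, and Angptl8 was at -0.0682, Retnlg at 0.0189, C1qtnf12 at 0.0879, Ucn2 at -0.49 and Agt at -0.25. With 2 against 3 libraries and few counts for many peptides, small differences were not detectable.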
